A study of Mus musculus with 4 samples.

Results

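Long stretches of chromosomes 5, 12 and 19 held CpGs that bisulfite sequencing read in Sca1-BCL6Δ mice and did not read, or barely read, in wild-type mice. On mm9 the stretches were the 15 Mb of chromosome 5 that end at 140 Mb, chromosome 12 from 15 to 40 Mb and chromosome 19 from 20 to 30 Mb, and every CpG in them was taken. They held 15791, 9421 and 6214 CpGs, which together made 31426 of the 1480609 CpGs read in any library, or 2.12%. The limits had been chosen by measured values, the presence of reads in Sca1-BCL6Δ and their absence in wild-type libraries, so the presence of reads and all other genotype differences within them are given as descriptions, without a test. The rest of the same chromosomes, with 181491 CpGs, is set beside them.

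Wild-type and Sca1-BCL6Δ mice each gave 1 library of haematopoietic stem and progenitor cells (HSPCs), sorted from bone marrow as Sca1+Lin-, and 1 of mature B cells, sorted from peripheral blood as B220+, so there were 4 libraries. The background of both genotypes was CBAxC57BL/6J. The Sca1-BCL6Δ mice carried a loxP-flanked Bcl6 cDNA with an IRES-eGFP in the pLy6 (Sca1) vector, together with the mb1-Cre allele, a Cre knocked into Cd79a that removes the cDNA once Cd79a is expressed. More than 1 independent transgenic line had been made, and the sources used here do not say which line gave the sequenced cells. Each library held DNA of 6 to 9 pooled mice, so no group had a replicate and no value below can be set against the spread between animals. Age and sex were not given in the labels, and with no expression data the labelled cell types could not be checked against their markers.

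CpG methylation is the addition of a methyl group to the cytosine of a CG dinucleotide, and in mammals most CpGs carry it while CpG-dense gene starts mostly do not. Reduced representation bisulfite sequencing (RRBS) cuts the genome with the enzymes MspI, at CCGG, and TaqI, at TCGA, and sequences the ends of the fragments. A CpG is read only where a cut site lies close by and where the read can be aligned to the reference genome. A CpG without reads therefore has no methylation value at all, which is not the same as a level of 0.

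A CpG had on average 7.48 reads in HSPCs of the wild type and 5.45 in those of Sca1-BCL6Δ mice, and 10.98 and 6.48 in their B cells. Both Sca1-BCL6Δ libraries were thus the shallower ones within their cell type. Within the stretches the averages were 7.0 and 5.27 in HSPCs and 10.34 and 6.15 in B cells.

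Gene starts were located by matching the spacing of CpGs in RefSeq promoter sequences (GRCm38.p6, 250 bases before to 50 after each start) to the CpG positions of the libraries on mm9. Of 4368 promoters on the 3 chromosomes 1037 matched at exactly 1 place, and 133 of these lay in the stretches. A total of 4 promoters are printed here because some of their CpGs differ between genotypes, either in level or in the presence of reads. The names and sequences were chosen after their values had been seen, and bases after the start are left out for the protein-coding genes. Capitals in Smarca2, the gene of an ATPase subunit of SWI/SNF chromatin remodelling complexes, mark 3 CpGs that were at least 20 percentage points higher in Sca1-BCL6Δ mice in both cell types (chr19:26679400-26679649, plus strand). In A930007I19Rik, a long non-coding RNA gene, they mark 1 CpG that was lower by as much in both (chr19:29596428-29596727, minus strand). In Hip1, which encodes an endocytic adaptor that binds huntingtin, they mark 3 CpGs with reads in Sca1-BCL6Δ mice and none in wild-type mice (chr5:135965100-135965349, minus strand). In Ufsp1, of the family of UFM1-specific peptidases, they mark 3 such CpGs (chr5:137735647-137735896, plus strand). All 4 are written 5′ to 3′ on the strand of the gene.
Smarca2: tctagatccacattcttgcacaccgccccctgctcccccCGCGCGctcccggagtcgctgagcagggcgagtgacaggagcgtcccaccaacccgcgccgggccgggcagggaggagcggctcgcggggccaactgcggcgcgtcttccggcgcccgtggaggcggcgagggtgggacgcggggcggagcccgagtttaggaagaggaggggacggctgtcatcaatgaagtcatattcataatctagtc
A930007I19Rik: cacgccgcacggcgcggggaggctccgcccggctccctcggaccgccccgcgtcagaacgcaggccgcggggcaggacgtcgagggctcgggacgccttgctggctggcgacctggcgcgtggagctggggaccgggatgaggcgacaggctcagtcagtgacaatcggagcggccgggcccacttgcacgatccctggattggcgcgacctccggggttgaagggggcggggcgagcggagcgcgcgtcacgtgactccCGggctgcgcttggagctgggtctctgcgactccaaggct
Hip1: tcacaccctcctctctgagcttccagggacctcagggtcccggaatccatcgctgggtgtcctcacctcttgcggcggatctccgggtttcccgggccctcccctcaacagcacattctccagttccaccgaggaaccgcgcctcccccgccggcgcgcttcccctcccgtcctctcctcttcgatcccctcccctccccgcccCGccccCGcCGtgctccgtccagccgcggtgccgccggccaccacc
Ufsp1: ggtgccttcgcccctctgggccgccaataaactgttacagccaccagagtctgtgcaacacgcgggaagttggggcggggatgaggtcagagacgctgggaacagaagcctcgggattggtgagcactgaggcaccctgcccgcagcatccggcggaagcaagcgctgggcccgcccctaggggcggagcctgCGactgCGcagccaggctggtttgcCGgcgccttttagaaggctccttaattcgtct

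CCGG, the MspI site, which reads the same on both strands, occurs 4 times in the Smarca2 sequence, 5 times in A930007I19Rik, 5 times in Hip1 and 2 times in Ufsp1. TCGA, the TaqI site, occurs 1 time each in A930007I19Rik and Hip1. Over all 32851 RefSeq promoters in the table, 47.1% hold CCGG and 18.5% hold TCGA in the 250 bases before the start, and 52.8% and 22.0% in all 300 bases.

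Presence of reads was counted over CpGs that reached 5 reads in each library of a genotype. Of 8822 CpGs so read in Sca1-BCL6Δ mice within the stretches, 135 had no read in either wild-type library, a share of 1.53% (95% Wilson interval 1.29 to 1.81%, which covers counting error only). In the rest of the same chromosomes the share was 45 of 50531, or 0.0891%, and in the other autosomes 79 of 331032, or 0.0239%. By chromosome the stretches had 1.16% against 0.0401% on chromosome 5, 1.35% against 0.124% on chromosome 12 and 2.71% against 0.151% on chromosome 19. Each stretch stood above the rest of its own chromosome. The order of the 3 depended on the definition: with 1 read allowed in each wild-type library chromosome 12 had 7.65% and chromosome 19 had 6.14%, and at a minimum of 10 reads chromosome 19 was the lowest, with 0.394% against 0.847% on chromosome 12 and 0.81% on chromosome 5.

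The opposite kind of CpG, read in wild-type mice alone, had the same share in the stretches as in the rest at this minimum of 5 reads. Of 13609 CpGs read in both wild-type libraries there, 209 had no read in either Sca1-BCL6Δ library, or 1.54%, and the rest of the same chromosomes had 1.54% as well, with 1329 of 86566. The shares were 1.61, 1.2 and 1.74% in the stretches of chromosomes 5, 12 and 19 and 1.52, 1.78 and 1.26% in the rest of each. This share was higher than that for Sca1-BCL6Δ alone outside the stretches, and the libraries a CpG had to be missing from were here the shallower ones.

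The excess was seen in each cell type taken by itself. In HSPCs 450 of 10329 CpGs with at least 5 Sca1-BCL6Δ reads had no wild-type read, or 4.36%, against 0.698% in the rest of the same chromosomes. In B cells the numbers were 563 of 12934, or 4.35%, against 0.655%. With the wild-type HSPC library left out, 2.98% of the 8822 CpGs had no read in wild-type B cells, against 0.255% in the rest. On chromosome 12 these shares were 7.41% in HSPCs and 7.08% in B cells, against 0.857 and 0.492% in the rest of that chromosome. Split by cell type in place of genotype, almost nothing was missing, in the stretches or in the rest. In the stretches 0 of 8182 CpGs read in both HSPC libraries had no read in B cells (3 counts of the total are 0.0367%, and the upper Wilson limit is 0.0469%). Of 10977 read in both B cell libraries 3 had none in HSPCs, or 0.0273%. In the rest of the same chromosomes these were 0 of 51210 and 66 of 69163, or 0.0954%.

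On chromosomes 12 and 19 more CpGs were thinly read in wild-type mice than were missing, and on chromosome 5 fewer were. On chromosome 12, 15.7% of the 2522 CpGs read in both Sca1-BCL6Δ libraries had 1 to 4 reads over both wild-type libraries together, against 0.892% in the rest of the chromosome. On chromosome 19 it was 5.81% against 1.08%, and on chromosome 5 it was 0.69% against 0.397%. The median of wild-type reads was 21 on chromosome 12, 25 on chromosome 19 and 26 on chromosome 5, with 26 in the rest of the 3 chromosomes. Most CpGs of every stretch still had at least 10 wild-type reads, namely 74.8% on chromosome 12, 88.4% on chromosome 19 and 96.3% on chromosome 5, against 96.5% in the rest of the 3 chromosomes. For CpGs read in both wild-type libraries, the Sca1-BCL6Δ reads were spread alike in the stretches and in the rest, with a median of 13 in both and 13.3 and 13.8% at 1 to 4 reads.

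Along the chromosomes the pattern came in blocks of windows. Among windows of 1 Mb with at least 20 CpGs read in both Sca1-BCL6Δ libraries, 28 of 49 in the stretches held a CpG without a wild-type read, against 22 of 244 in the rest and 38 of 1829 on other autosomes. Of the 20 highest of 2122 autosomal windows, 16 lay in the stretches, 3 in the rest of the same chromosomes and 1 elsewhere. Windows where at least 10% of CpGs had at most 4 wild-type reads numbered 20 of 24 on chromosome 12, 4 of 10 on chromosome 19 and 0 of 15 on chromosome 5. In the rest of the chromosomes there was 1 of 244, from 52 to 53 Mb of chromosome 19 with 14.8%, and on other autosomes 3 of 1829.

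**Figure D1:**
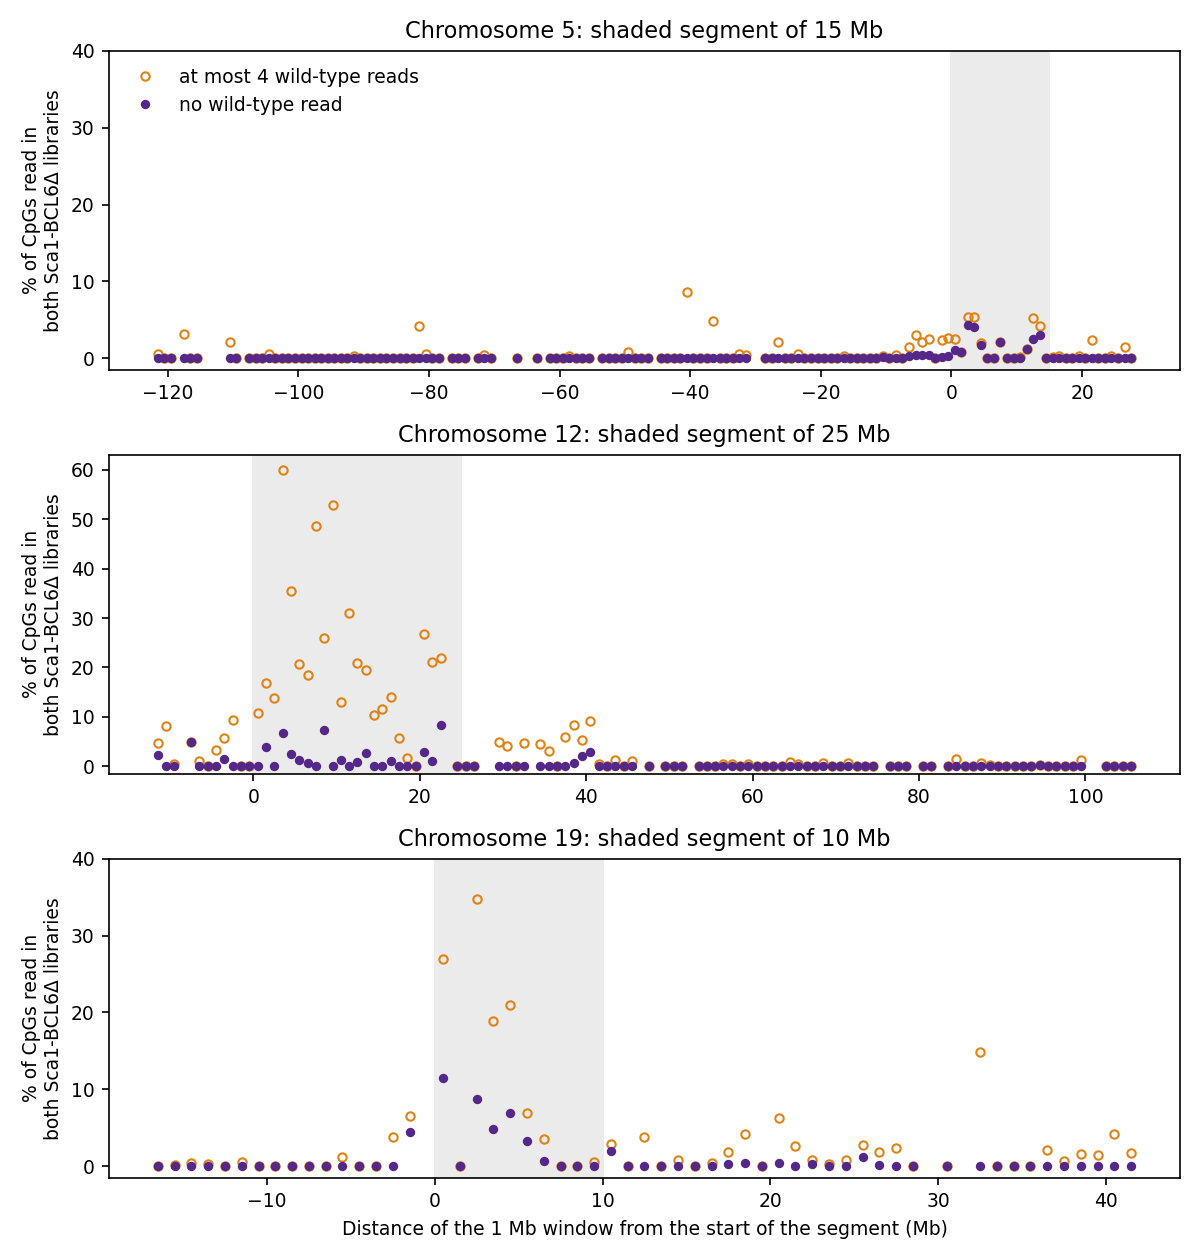
Share of CpGs read in both Sca1-BCL6Δ libraries that had no wild-type read (filled points) or at most 4 wild-type reads in all (open points), per 1 Mb window, against the distance in Mb from the start of each shaded stretch; only windows with at least 20 such CpGs are drawn. Open points reach 60.0% on chromosome 12 and 34.8% on chromosome 19, and none on chromosome 5 inside the shading is above 5.41%.

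On chromosome 12 the open points of that plot were high over most of the stretch. From 18 to 19 Mb 45 of 75 CpGs, or 60.0%, had at most 4 wild-type reads, from 22 to 23 Mb 48.6% and from 24 to 25 Mb 52.8%. They fell to 5.76% from 32 to 33 Mb, 1.63% from 33 to 34 Mb and 0% from 34 to 35 Mb, and were at 26.7, 21.2 and 22.0% in the 3 windows that followed. For no read at all the highest shares were 8.47% (5 of 59) from 37 to 38 Mb, 7.41% (2 of 27) from 23 to 24 Mb and 6.67% (5 of 75) from 18 to 19 Mb. At the limits, the windows just inside (15 to 16 Mb and 39 to 40 Mb) held none of these among 65 and 20 CpGs, and those just outside (14 to 15 Mb and 40 to 41 Mb) none among 27 and 102. Lower shares of thinly read CpGs recurred beyond the limits, such as 9.48% from 12 to 13 Mb and 9.15% from 55 to 56 Mb.

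On chromosome 19 the first 7 Mb held the missing CpGs, apart from the window from 21 to 22 Mb, where none of 158 CpGs had under 5 wild-type reads. The windows starting at 20, 22 and 24 Mb had 11.5% (3 of 26), 8.7% (4 of 46) and 6.99% (20 of 286) of CpGs without a wild-type read. From 27 Mb to the end of the stretch there was none, with 345 CpGs read in the last window. Just outside, the window from 30 to 31 Mb had 1.94% (2 of 103), and the one from 19 to 20 Mb had none among 19. Beyond the latter, the window from 18 to 19 Mb had 4.4% (4 of 91), among the 20 highest of all autosomal windows, so missing CpGs also lay below the lower limit. On chromosome 5 the highest shares were 4.3% (4 of 93) from 127 to 128 Mb, 4.05% (6 of 148) from 128 to 129 Mb and 3.02% (8 of 265) from 138 to 139 Mb. The windows next to its lower limit had 0.345% (2 of 580) outside and 1.08% (6 of 556) inside, and those at its upper limit none inside, of 531, or outside, of 522. CpGs with at most 4 wild-type reads showed no edge at the lower limit, with 2.59% (15 of 580) just outside and 2.52% (14 of 556) just inside. Farther outside, the windows starting at 118 to 121 Mb had 1.45 to 3.04% of them. Those starting at 122 and 123 Mb had 0 and 2.34%, and the whole stretch of chromosome 5 had 1.85%.

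The 135 CpGs formed 93 chains with gaps of at most 50 bp, of which 66 were single CpGs and the longest held 5. CpGs of a chain share reads, so a chain is nearer to 1 observation than its CpGs are. Missing CpGs and CpGs with wild-type reads were partly mixed at short range. The nearest CpG with at least 1 read in either wild-type library lay within 50 bp of 28 of the 135. It lay at 51 to 1000 bp from 50 and farther from 57. None of the 135 lay in a matched promoter, where 12.1% of all CpGs read in both Sca1-BCL6Δ libraries lay. In the rest of the chromosomes 4 of 45 lay there. CpGs read in wild-type mice alone were also scarce in matched promoters. In the stretches 0 of 209 lay there, beside 8.8% of all CpGs read in both wild-type libraries. In the rest it was 18 of 1329, beside 8.7%.

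Most of these CpGs were methylated. Their median level in Sca1-BCL6Δ mice was 88.9% in HSPCs and 100% in B cells, and 71.1 and 71.9% of them were at 80% or more. Of the other CpGs read in both libraries in the stretches, 36.9 and 38.2% were. CpGs read in wild-type mice alone were also mostly methylated, with 55.0% at 80% or more in wild-type HSPCs and 77.5% in wild-type B cells, against 29.2 and 46.3% of the others. High methylation was thus shared by CpGs missing from either genotype.

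Among the chains with the most reads on chromosome 5, 2 CpGs at 128098472 to 128098481 had 14 and 17 reads each in Sca1-BCL6Δ HSPCs and B cells and were 92.9 and 97.1% methylated. They lay 0.609 kb from the centre of the matched 300-base promoter window, as all distances to promoters are measured here, of Slc15a4, which encodes a histidine and peptide transporter of endolysosomes. The next CpG with wild-type reads was 52 bp away. A chain of 3 CpGs at 137580864 to 137580894, of 96.2 and 100% methylation, lay 58.8 kb and 11.3 kb from the promoters of Ap1s1, a subunit of a clathrin adaptor complex, and of Trim56, an E3 ubiquitin ligase, with the nearest wild-type read 2472 bp away. A chain of 4 at 137497134 to 137497158 had 87.0 and 93.8%.

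On chromosome 12 the chain with the most reads, 2 CpGs at 23255319 to 23255336, had 12 reads each in Sca1-BCL6Δ HSPCs and 18 to 19 in B cells, with intermediate levels of 33.3 and 45.9%. It lay between the matched promoters of Adam17, a membrane protease that sheds TNF, 1880 kb away, and Gm40862. Chains at 16597217 to 16597223 and 25068208 to 25068219 were 100% methylated in both libraries, with 10 and 16 reads per CpG in the first and 7 and 10 in the second.

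On chromosome 19 the chains with the most reads included 2 of low methylation close to gene starts. A chain of 4 CpGs at 24105823 to 24105850, 0.213 kb from the matched promoter of Fam189a2, was at 4.2% in Sca1-BCL6Δ HSPCs (1 of 24 CpG reads) and 5.7% in B cells (2 of 35). A CpG with wild-type reads lay 18 bp away. Another, 3 CpGs at 25747114 to 25747137, lay 0.284 kb from the promoter of 2610016A17Rik and was at 28.6 and 0.0%. The third, at 23995503 to 23995530, was at 88.9 and 90%.

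Chains read in wild-type mice alone were found in the same stretches. On chromosome 5, 4 CpGs at 128097177 to 128097197, 0.686 kb from the promoter of Slc15a4 and on its other side from the chain described above, were at 0.0% in both wild-type libraries, from 26 and 32 CpG reads. On chromosome 12, 3 CpGs at 29592975 to 29592989 had 20 and 22 reads each in wild-type HSPCs and B cells, with levels of 41.7 and 59.1%. On the same chromosome a CpG at 25408665, 15.6 kb from the promoter of Rrm2, a subunit of ribonucleotide reductase, had 20 and 24 wild-type reads. On chromosome 19, 2 CpGs at 28126252 to 28126286 had 11 and 10. The matched promoter of Rfx3, a transcription factor of ciliated cells, lay at 28085607 to 28085906.

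Coverage as a whole also differed, on chromosome 12 above all. The CpG reads of each library over a 1 Mb window were taken per 1000000 autosomal CpG reads, and the log2 ratio of Sca1-BCL6Δ to wild-type was formed in each cell type. The median over the 25 windows of chromosome 12 was 0.32 in HSPCs and 0.41 in B cells, and 21 windows were above 0 in both. On chromosome 19 the medians were -0.02 and 0.10 and on chromosome 5 they were 0.03 and -0.12. In the rest of chromosome 12 they were -0.06 and 0.00.

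The highest ratios fell in a run of 3 windows of chromosome 12. From 23 to 24 Mb wild-type HSPCs had 19 such reads and Sca1-BCL6Δ HSPCs 55.8, and B cells had 15.4 and 77.5, log2 ratios of 1.56 and 2.33. The ratios were 0.90 and 1.08 in the window before that one and 1.45 and 1.52 in the window after it. In the opposite direction, the window from 39 to 40 Mb had -0.69 and -0.33. On chromosome 19 the 2 windows from 23 to 25 Mb had 0.52 and 0.58 in HSPCs and 0.62 and 0.54 in B cells.

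**Figure D2:**
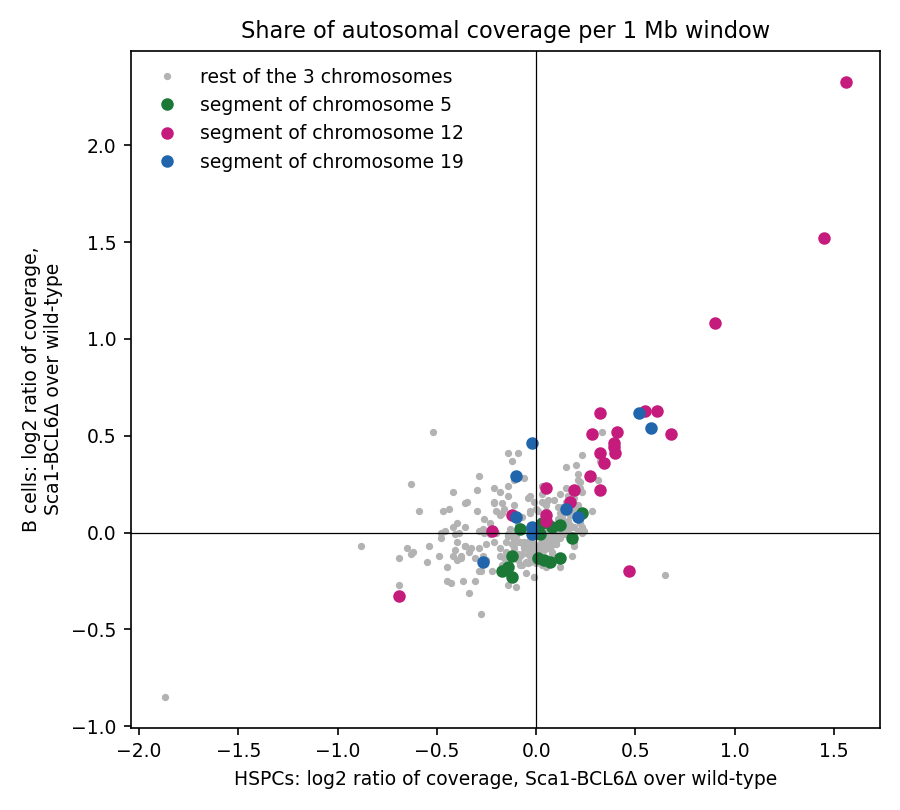
Log2 ratio of the share of autosomal CpG reads, Sca1-BCL6Δ over wild-type, per 1 Mb window with at least 100 reads in each library, in HSPCs (x axis) and B cells (y axis); coloured points are windows of the 3 stretches and grey points the 275 other windows of the same chromosomes. The windows of chromosome 12 lie mostly above 0 on both axes, up to 1.56 and 2.33, and those of chromosome 5 lie around 0.

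A ratio of at least 0.3 in both cell types was found in 15 of 50 windows of the stretches, 13 of them on chromosome 12 and 2 on chromosome 19. It was found in 2 of 275 windows in the rest of the chromosomes and 14 of 2069 on other autosomes. Across the 50 windows Pearson's r between the cell types was 0.89, against 0.37 over the other 275 windows. These are descriptions, since each cell type's ratio rests on 1 pair of libraries and the windows of a library share its depth and base composition.

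Levels of methylation, at CpGs that both genotypes read, differed little between the stretches and the rest. At the 2079 CpGs that reached 10 reads in each HSPC library the mean level was 29.0% for the wild type and 30.5% for Sca1-BCL6Δ. The mean absolute difference per CpG was 11.56 percentage points (SE 0.26 over CpGs, which share reads), against 10.55 (SE 0.10) in the rest. In B cells, at 4016 CpGs, the mean levels were 38.0 and 38.0% and the mean absolute difference was 7.48 points (SE 0.14) against 7.26 (SE 0.05). The HSPC values contain the wild-type HSPC library, and the B cell values do not. On the other autosomes the mean genotype difference was 1.71 points in HSPCs and -0.4 in B cells. Between cell types, B cells minus HSPCs, it was 5.49 points in wild-type mice and 0.27 in Sca1-BCL6Δ mice. The HSPC libraries were also the shallower ones within each genotype. What made the HSPC differences larger was not tested.

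Differences that recurred in both cell types were few. At 1441 CpGs with at least 10 reads in all 4 libraries Pearson's r between the genotype difference in HSPCs and in B cells was 0.146, against 0.059 over 9078 CpGs in the rest, with 0.276 on chromosome 12, 0.116 on chromosome 5 and 0.072 on chromosome 19. This is a description, since the CpGs come from the same 4 libraries and neighbours share reads. A difference of at least 20 points in the same direction in both was seen at 25 CpGs (1.73%) and in opposite directions at 10 (0.694%). In the rest these were 92 (1.01%) and 82 (0.903%). Of the 25, 13 were higher and 12 lower in Sca1-BCL6Δ mice.

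The largest was at chromosome 5, 129327798. Its nearest matched promoters were those of Fzd10, a Wnt receptor, 221 kb away, and Ran, a GTPase of nuclear transport, 198 kb away. In wild-type mice 0 of 13 HSPC reads and 0 of 32 B cell reads were methylated, with upper Wilson limits of 22.8 and 10.7%. The limit of 3 counts of the total is 23.1 and 9.4%. In Sca1-BCL6Δ mice 15 of 16 and 13 of 15 reads were, levels of 93.8% (95% Wilson interval 71.7 to 98.9%) and 86.7% (62.1 to 96.3%). The intervals did not overlap between genotypes in either cell type. They cover counting error only, and the CpG was picked for its large difference, so this is a description.

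Higher levels in both cell types were also seen on chromosome 12. At 19710313 the level was 30.0% (3 of 10 reads) in wild-type and 63.6% (7 of 11) in Sca1-BCL6Δ HSPCs, and 40.0% (4 of 10) and 100% (10 of 10) in B cells. At 25783899 it was 6.9% (2 of 29) and 28.6% (6 of 21), then 4.8% (1 of 21) and 26.7% (8 of 30). At 27523986 it was 78.6 and 100% in HSPCs and 63.2 and 85.7% in B cells. The last 2 lay 391 and 2130 kb from the matched promoter of Rrm2. They lay 3540 and 1800 kb from that of Rps7, a ribosomal protein gene. On chromosome 5, 134526786 went from 50 to 83.3% and from 64.0 to 93.8%, and 132013832 from 0.0 to 27.8% and from 4.8 to 27.8%.

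Among lower levels the largest was at chromosome 12, 25447838, 54.8 kb from the promoter of Rrm2. It had 78.6% (11 of 14 reads) in wild-type and 30.8% (4 of 13) in Sca1-BCL6Δ HSPCs, and 88.9% (16 of 18) and 45.5% (5 of 11) in B cells. At 10 to 30 reads the Wilson intervals of such levels are wide, here 52.4 to 92.4% against 12.7 to 57.6% in HSPCs, and they overlapped. On chromosome 5, 128938118 went from 50 to 8.3% and from 66.7 to 25.0%, and 125378324 from 56.2 to 23.5% and from 47.6 to 9.1%. At 139469971, 1.03 kb from the promoter of Pdgfa, a growth factor gene, the level went from 23.1 to 0.0% and from 60.0 to 23.5%, and on chromosome 19 28711016 went from 70.0 to 26.7% and from 42.9 to 20%.

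**Figure D3:**
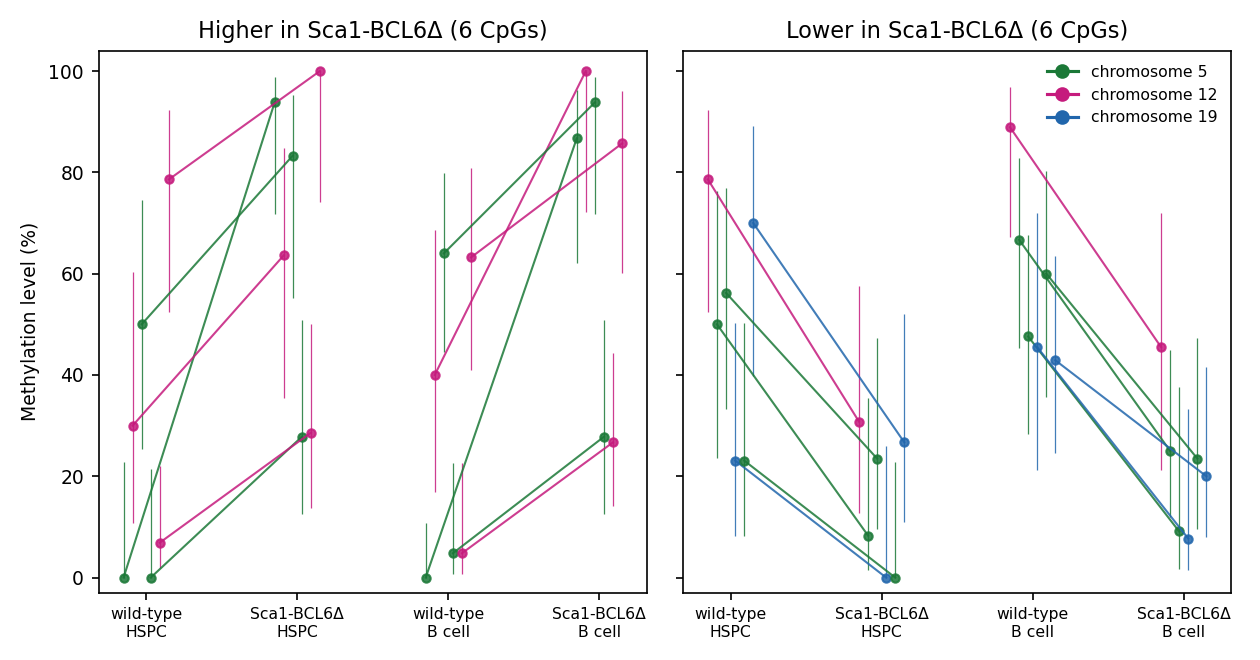
Methylation level in percent (y axis) in each library for up to 6 CpGs per direction with at least 10 reads in all 4 libraries and a difference of at least 20 points of the same sign in HSPCs and B cells; lines join the genotypes within a cell type, colours give the chromosome and bars are 95% Wilson intervals of the reads. The CpG that starts at 0.0% in both wild-type libraries reaches 93.8 and 86.7% in Sca1-BCL6Δ mice, and the bars of most other CpGs overlap between genotypes.

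In the promoter sequences printed above, the capitals of Smarca2 lie in 3 neighbouring CpGs that share reads, at 26679439, 26679441 and 26679443. They had 20 reads each in wild-type HSPCs, of which 0, 1 and 0 were methylated, and 3 of 12 each in Sca1-BCL6Δ HSPCs. In B cells they had 0 of 25 each in wild-type and 2 of 10 each in Sca1-BCL6Δ mice. Over all 18 CpGs read in that promoter, these 3 included, the level was 5.8% in wild-type and 16.2% in Sca1-BCL6Δ HSPCs. In B cells it was 10.3 and 9.7%. The 3 CpGs gave 60 of the 156 CpG reads in wild-type HSPCs, 1 of them methylated. In Sca1-BCL6Δ HSPCs they gave 36 of 105, 9 of them methylated. Whether the other CpGs of the promoter differed was not examined. The CpG of A930007I19Rik, at 29596466, had 3 of 13 and 0 of 11 methylated reads in wild-type and Sca1-BCL6Δ HSPCs, and 5 of 11 and 1 of 13 in B cells.

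In Sca1-BCL6Δ mice the capitals of Hip1 were read 6 times in HSPCs and 7 times in B cells, summed over the 3 CpGs, and those of Ufsp1 6 and 21 times. No wild-type read covered any of them, while the whole 300-base Hip1 promoter had 148 and 232 CpG reads in wild-type HSPCs and B cells and that of Ufsp1 54 and 123. At the capitals of Hip1 6 of 6 and 4 of 7 reads were methylated, and at those of Ufsp1 3 of 6 and 3 of 21. At least 1 CpG with 3 or more Sca1-BCL6Δ reads and no wild-type read was found in 5 of 133 matched promoters (3.76%), against 17 of 904 (1.88%) in the rest of the chromosomes. The other 3 were those of Pdgfa, Gm50341 and 2610016A17Rik. The reverse, 3 or more wild-type reads and no Sca1-BCL6Δ read, was found in 25 of the 133 and 178 of the 904.

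Gene starts in the stretches were mostly unmethylated in every library. Among the 97 matched promoters with at least 50 CpG reads in each library, the median level in HSPCs was 8.9% for the wild type and 7.1% for Sca1-BCL6Δ. In B cells the medians were 7.5 and 7.8%, and 78 of the 97 were below 20% in all 4. In the rest of the chromosomes 534 of 601 were, with medians of 8.2, 6.2, 6.4 and 5.6% in the same order. Jak2, the gene of a kinase of cytokine receptors, had 2.7, 4.6, 2.7 and 5.8% in that order. Fkbp6, a gene of meiosis, was methylated throughout, with 83.8, 97.3, 93.2 and 93.8%. Matching needed at least 8 read CpGs in the window, so these promoters are the CpG-rich ones. Overlapping windows, such as those of Fkbp6, were counted separately.

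Few promoters differed between genotypes in both cell types. Gtf2i, which encodes the transcription factor TFII-I, was the only one of the 97 at least 10 points higher in both, with 3.0 and 22.5% in wild-type and Sca1-BCL6Δ HSPCs and 8.0 and 21.7% in B cells. None was at least 10 points lower in both, and in the rest of the chromosomes 5 of 601 were higher and 3 lower. The shared start of Prkar1b, a regulatory subunit of protein kinase A, and Dnaaf5, an assembly factor of ciliary dynein arms, went in opposite directions, from 14.7 to 0.8% in HSPCs and from 7.7 to 24.7% in B cells. Vps37d, of an ESCRT subunit, had 7.7 and 30.0% in HSPCs and 15.1 and 9.8% in B cells.

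**Figure D4:**
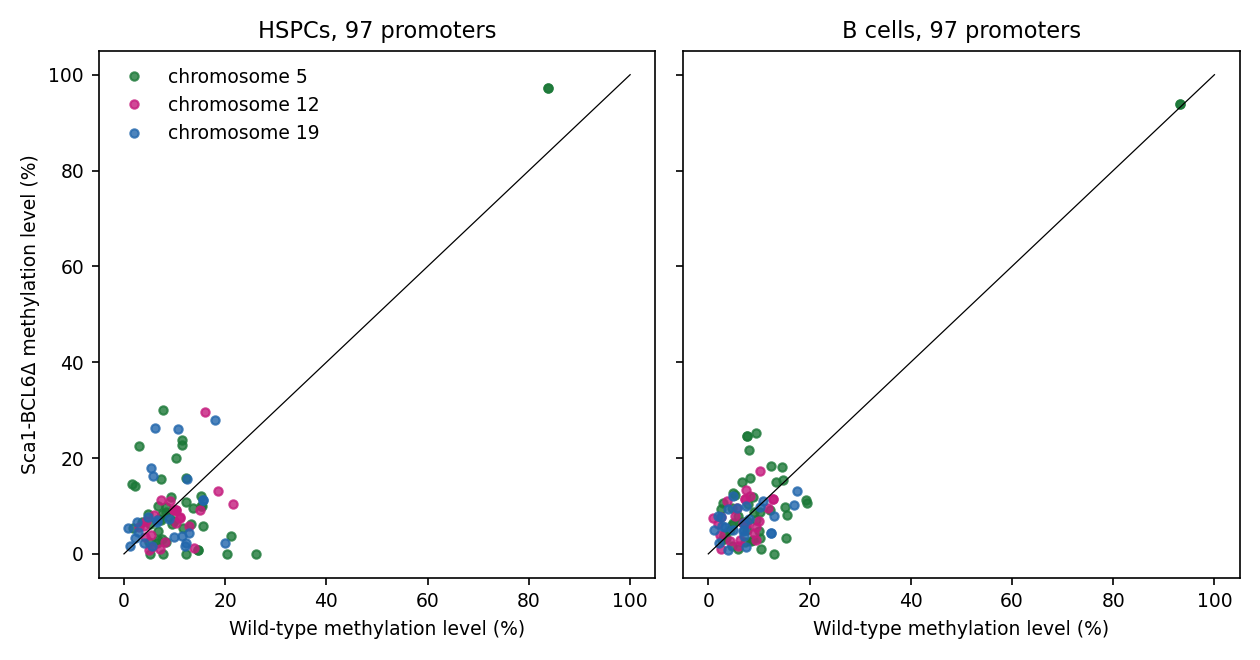
Methylation level of the 97 matched promoters in the stretches with at least 50 CpG reads in each library, wild-type on the x axis and Sca1-BCL6Δ on the y axis in percent, for HSPCs (left) and B cells (right); the line marks equal levels and colours give the chromosome. Most points lie below 20% on both axes, and the point near the upper corner is Fkbp6.

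Each CpG of the genome with 10 or more reads in a pair of libraries was also tested by Fisher's exact test, two-sided, on its methylated and unmethylated reads. P-values were adjusted over the whole genome by Benjamini and Hochberg, and a CpG was called below 0.05 where the levels were 20 points or more apart. In HSPCs 2 of 2079 CpGs of the stretches were called higher in Sca1-BCL6Δ mice and 0 lower, where 0.025% of all CpGs were called higher and 0.012% lower, 0.037% in all. In B cells 3 of 4016 were called higher and 0 lower, where the shares were 0.0101% and 0.00706%, 0.0172% in all. Since genotype had set the stretches, nothing is read from these counts.

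The CpG called in both cell types was the one at 129327798 on chromosome 5. In HSPCs the other was at chromosome 19, 27574076, with 22.7% (5 of 22 reads) in wild-type and 100% (10 of 10) in Sca1-BCL6Δ HSPCs, and 100% in both B cell libraries. In B cells the others were at chromosome 19, 24199638, with 9.5% (2 of 21) and 100% (10 of 10), and at chromosome 12, 24486049, with 13.0% (3 of 23) and 82.4% (14 of 17). In HSPCs 24199638 had 0 of 13 methylated reads in wild-type and 4 of 7 in Sca1-BCL6Δ mice. There 24486049 had 3 of 9 and 7 of 12, with overlapping Wilson intervals of 12.1 to 64.6% and 32.0 to 80.7%. These 2 CpGs had under 10 reads in 1 of the HSPC libraries and were not tested in that cell type.

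The comparison of B cells with HSPCs had no part in choosing the stretches. In wild-type mice 36 of 5759 CpGs were called higher and 3 lower in B cells, beside 0.682% higher and 0.0512% lower over all CpGs tested, so the share called in either direction was 0.677% in the stretches and 0.734% in all. By chromosome 14 of 3139 were called on chromosome 5, 12 of 1476 on chromosome 12 and 13 of 1144 on chromosome 19. The test compares the reads of 2 pooled libraries and not animals, and the wild-type HSPC library is in each of these comparisons.

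The largest rise was at chromosome 5, 129506789, 19.1 kb from the promoter of Ran, from 1 of 11 methylated reads in wild-type HSPCs to 20 of 22 in wild-type B cells (a difference of 81.8 points, adjusted p = 0.0062, Fisher's exact test). In the same stretch 127971652 went from 2 of 10 to 12 of 12 reads (80 points, adjusted p = 0.031, exact), and 127511176 from 3 of 14 to 19 of 19 (78.6 points, adjusted p = 0.0027, exact). At 127511176 Sca1-BCL6Δ mice had 10 of 10 methylated reads in HSPCs and 12 of 12 in B cells, so the low level there was in the wild-type HSPC library alone. Of the 3 CpGs that fell, 29018747 on chromosome 19, 19.6 kb from the promoter of Plpp6, a lipid phosphatase gene, went from 8 of 11 to 0 of 15 reads and fell by 72.7 points (adjusted p = 0.027, exact). In Sca1-BCL6Δ mice it had 0 of 13 in HSPCs and 6 of 17 in B cells, the opposite order. On chromosome 5, 125968204, 12.1 kb from the promoter of Aacs, an enzyme that activates acetoacetate, went from 13 of 15 to 4 of 21 reads and fell by 67.6 points (adjusted p = 0.028, exact). On chromosome 12, 16514211 went from 8 of 11 to 2 of 23 and fell by 64.0 points (adjusted p = 0.047, exact).

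In Sca1-BCL6Δ mice 0 of 2209 CpGs of the stretches were called between B cells and HSPCs by the same test, where 0.00915% of all CpGs were called in each direction and 0.0183% in all. An unadjusted p below 0.05 was found at 37 of the 2209, or 1.67%, against 1.74% of all CpGs tested. On simulated counts at these coverages, with 200 of 98408 CpGs raised by 50 points, the test found 0 of the 200. Changes of that size could thus be missed where few CpGs differ. The difference between the cell type comparisons of the 2 genotypes was not tested.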

How the data were processed

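RRBS was done on 4 pooled libraries, cut with MspI and TaqI, size-selected to 40 to 350 bp and amplified with 18 PCR cycles, per the labels' protocols. Per the submitters' methods text, an in-house pipeline aligned reads to ends (36 bp each) of fragments predicted at 40 to 220 bp; its version is not given in the sources used here. The build was mm9, per the submitters' processing notes. No removal of PCR duplicates was recorded. Each line of the deposited CpG tables held the count of methylated reads and of all reads of a CpG, and a score, per the file headers the mean methylation, which was not used in tests. Deposited read tables gave the percent of methylated CpGs and the count of CpGs per read, and were used only to count fragment ends. Positions are printed counted from 1.

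The stretches, lists and tests were chosen with earlier results of these data known. CpGs were merged over libraries by position. A CpG was read in a genotype with at least 5 reads in both its libraries, and missing from the other with 0 in both. Items named were the 1 Mb windows at each limit, the 3 windows with the highest share per stretch (at least 20 CpGs), up to 3 chains of CpGs with the most reads per stretch and genotype, up to 6 CpGs per direction with a difference of at least 20 percentage points in both cell types, all CpGs called between genotypes and up to 3 per direction called between cell types. Promoters, and windows with at most 4 wild-type reads, were added after the data were seen. Fisher's exact test was computed in Python 3.11.15 with numba 0.67.0 and checked on simulated data at the real coverages of each comparison. Of 200 CpGs changed by 50 percentage points it found 2 for genotype in HSPCs and 0 for genotype in B cells. Between cell types it found 3 in wild-type mice and 0 in Sca1-BCL6Δ mice. Of 200 changed by 90 points it found 179, 182, 186 and 182 in the same order. The changed CpGs were all raised and all others were left unchanged, so these counts hold where few CpGs differ. No mm9 annotation was used, so exons and introns are not given. Alternatives are in the closing section.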

Additional observations from a re-analysis of the deposited data

How the results depend on the processing

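With 1 library per condition and no replicates, pooled animals could not be told apart and reads of a chain were not independent. No paired analysis was possible because no condition had a second library and the labels give no replicate numbers, and no replicate could be left out. Of the 31426 CpGs, 2079 in HSPCs and 4016 in B cells had the 10 reads in both libraries that the genotype test needed. Under all alternatives the share read in Sca1-BCL6Δ alone was higher in each stretch than in the rest of its chromosome. For the 3 together it was higher by at least 6.25 times where the rest was above 0, but its size moved. The limits had been chosen by the presence of such reads, and each alternative recounts the same libraries. This order was thus largely set in advance and is a description. Its cause was not tested. The share was 1.53% in the stretches and 0.0891% in the rest as reported. It was 3.58 and 0.551% at a minimum of 1 read, 0.724 and 0.0% at 10 reads, 4.22 and 0.303% where 1 read was allowed in each other library, 2.26 and 0.127% over aligned fragment ends, 3.2 and 0.263% with libraries thinned to equal coverage, and 1.6 and 0.0526% over 1 kb tiles. Alternatives chosen after seeing the data gave 7.56 and 0.782% for at most 4 wild-type reads, 4.36 and 0.698% in HSPCs alone, 4.35 and 0.655% in B cells alone, and 2.98 and 0.255% without the wild-type HSPC library. The share read in wild-type mice alone, 1.54% in both, was 8.76 and 8.77% at 1 read, 0.33 and 0.267% at 10 reads, 5.36 and 5.67% with 1 read allowed, 2.08 and 2.03% over fragment ends, 0.625 and 0.522% at equal coverage, and 1.53 and 1.38% over tiles, so that the stretches lay above the rest under some of these and below it under others. The mean absolute genotype difference in stretches and rest was 14.47 and 13.65 points in HSPCs and 8.82 and 8.33 in B cells at 5 reads. At 20 reads it was 9.19 and 6.66 in HSPCs and 6.81 and 5.84 in B cells, and thinned to 10 reads per CpG 12.22 and 11.24, then 8.55 and 8.08. Pearson's r between cell types in the stretches was 0.086 at 5 reads and 0.384, over 24 CpGs, at 20. CpGs called between genotypes, 2 in HSPCs and 3 in B cells as reported, were 1 and 5 at 5 reads, 3 and 0 at 20 reads, 1 and 1 without the highest coverages and 1 and 1 with the first CpG of each chain. CpGs called between wild-type cell types, 39 as reported, were 25 at 5 reads and 23 at 20 reads.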
